A study of Mus musculus with 36 samples.

Results

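The expression of 10 imprinted genes was followed across all 36 RNA-seq libraries of the series: H19, Igf2, Meg3, Rian, Dlk1, Peg3, Peg10, Grb10, Cdkn1c and Plagl1. They were chosen by name as imprinted genes, not by a threshold on a measured value, but with earlier results of these data known. They are 10 of the 49671 genes in the deposited count table. All 10 were present in the table and all 10 were among the 17702 genes that passed the filter on low counts. The least-counted member, Dlk1, had 47 reads in its lowest library.

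The cells were mouse embryonic stem cells (mESCs), labelled 129m wt, and the labels name no transgene or mutation in any group. They grew on soft or stiff StemBond hydrogels, polyacrylamide gels to which matrix protein, here fibronectin, is tethered, or on tissue culture plastic as the control substrate. At 48 h both gels carried cells in serum alone and in serum with LIF, with PD03 or with both added, and at 24 h cells in serum + LIF. Plastic was sampled in serum + LIF at 48 h. LIF is the cytokine that sustains self-renewal through STAT3, and PD03 inhibits the kinase MEK and so the ERK pathway. Serum was common to all groups. Each of the 11 groups had 3 libraries, except soft serum + PD03 with 6. The design text gives 3 replicates for each condition, whereas the labels put 6 samples in soft serum + PD03, and all 6 were used. The labels call the libraries replicates without saying whether they came from separate cultures, so the p-values measure the spread between these libraries, which may be technical. All groups came from the same wild-type line, which limits the results to it.

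Libraries held between 10405696 and 26635239 counted reads. Values below are normalised counts in counts-per-million (CPM), with each library scaled by its total count and its TMM factor. A call means a Benjamini-Hochberg adjusted p under 0.05 over all 17702 genes in edgeR's quasi-likelihood test. The 6 embryonic stem cell markers (Pou5f1, Sox2, Nanog, Esrrb, Zfp42 and Dppa5a) were present in every group, with a summed level of 2159 to 3863 CPM over the libraries. A library of stiff serum and a library of soft serum + LIF stood apart, with 0.574% and 0.626% of their reads from mitochondrial genes against 1.06% to 2.92% in the other 34. They are the second libraries of their groups, where numbers follow the order of columns and are names only. The same libraries were low in Meg3, at 60.7 and 62.8 CPM, and test results that change without the pair are also given without it. Correlations and ratios were not computed without the pair. The third library of soft serum + PD03 lay farthest from its group mean over the more highly expressed genes (SD of 0.106 log2). Its mitochondrial share was 1.52%, inside the range of the others. It held the lowest Igf2 and the highest H19, Meg3 and Plagl1 of its group. Without it, 7 instead of 8 members were called lower on soft in serum + PD03. This is within the 6 to 8 called when any library of that comparison was left out. All 10 were still called with PD03 on soft gels without LIF. The sequencing pool named in the labels separates most soft from most stiff libraries at 48 h, but soft and stiff share a pool at 24 h.

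Imprinted genes are expressed mainly from the copy inherited from a given parent, a choice kept by DNA methylation at imprinting control regions. H19, a long noncoding RNA of the maternal copy, and Igf2, the growth factor insulin-like growth factor 2 of the paternal copy, are neighbours that share a control region. Meg3 and Rian are maternal noncoding RNAs of the Dlk1-Dio3 region, which also holds paternal Dlk1, a transmembrane protein related to Notch ligands. Peg3 (a zinc finger protein), Peg10 (derived from a retrotransposon and needed in the placenta) and Plagl1 (a zinc finger transcription factor) come from the paternal copy. Grb10, an adaptor that restrains insulin and IGF receptor signalling, and Cdkn1c, an inhibitor of cyclin-dependent kinases, come mainly from the maternal copy. The counts do not separate the parental copies, so every value is the sum of both.

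On the mouse build GRCm38, H19 lies at chr7:142575529-142578143 on the minus strand and Igf2 at chr7:142650766-142666816 on the minus strand. Cdkn1c lies on the same chromosome at chr7:143458339-143461050 and Peg3 at chr7:6703892-6730431, both on the minus strand. Dlk1 (chr12:109452823-109463336), Meg3 (chr12:109541001-109571726) and Rian (chr12:109603940-109661716) follow one another on the plus strand of chromosome 12. Peg10 lies at chr6:4747306-4760517 on the plus strand, Grb10 at chr11:11930508-12038683 on the minus strand and Plagl1 at chr10:13060504-13131694 on the plus strand.

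H19, Igf2, Meg3 and Rian host microRNAs, 13 mature forms in all. One pair from each host is shown because these hosts moved most with PD03, with bases 2 to 8 (the seed that pairs with targets) in capitals and sequences from RefSeq on GRCm38.p6. The first pair lies in an annotated exon of H19 (chr7:142577112-142577133 and chr7:142577078-142577099, minus strand) and the second in an intron of Igf2 (chr7:142654968-142654989 and chr7:142654932-142654952, minus strand). The third pair lies in an exon of Meg3 (chr12:109563710-109563731 and chr12:109563744-109563765, plus strand) and the fourth in an intron of Rian (chr12:109618270-109618289 and chr12:109618305-109618326, plus strand).
miR-675-5p (host H19): uGGUGCGGaaagggcccacagu
miR-675-3p (host H19): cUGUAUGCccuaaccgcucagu
miR-483-5p (host Igf2): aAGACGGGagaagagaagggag
miR-483-3p (host Igf2): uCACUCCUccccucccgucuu
miR-770-5p (host Meg3): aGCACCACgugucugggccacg
miR-770-3p (host Meg3): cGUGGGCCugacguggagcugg
miR-370-5p (host Rian): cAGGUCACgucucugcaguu
miR-370-3p (host Rian): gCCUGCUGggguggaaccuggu
No 2 of these 8 share a seed. The hairpin genes themselves had no counts in any library, so the values that follow are those of the long host transcripts and say nothing of the mature forms.

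Promoter windows (250 bases before to 50 after the start) were matched for 7 members, 12 windows in all. They were searched on both strands for TGCCGC, the hexamer read by ZFP57, a zinc finger protein that keeps imprints. It occurred in 4 of these 12 windows, against 11.6% of 32851 windows in the same table. Several windows share a gene and the background was not matched for CpG sites, so the shares do not test for enrichment. The windows at the first RefSeq start of Meg3 (chr12:109540746-109541045, plus strand) and at the RefSeq start of Plagl1 (chr10:13090582-13090881, plus strand) are shown because both hold the hexamer and the genes moved in opposite directions with PD03. Capitals mark the hexamer, in both cases on the reverse strand.
Meg3 promoter: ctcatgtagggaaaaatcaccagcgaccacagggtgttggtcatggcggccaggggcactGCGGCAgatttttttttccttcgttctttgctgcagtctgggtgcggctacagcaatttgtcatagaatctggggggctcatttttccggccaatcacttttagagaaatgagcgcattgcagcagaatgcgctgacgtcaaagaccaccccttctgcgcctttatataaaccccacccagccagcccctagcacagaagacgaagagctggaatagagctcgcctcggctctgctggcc
Plagl1 promoter: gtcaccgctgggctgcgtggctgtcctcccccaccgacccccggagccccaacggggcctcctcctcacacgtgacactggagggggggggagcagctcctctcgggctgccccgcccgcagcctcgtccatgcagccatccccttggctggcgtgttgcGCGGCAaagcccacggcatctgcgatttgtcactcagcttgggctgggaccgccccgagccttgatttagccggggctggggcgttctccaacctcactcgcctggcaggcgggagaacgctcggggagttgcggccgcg
The Meg3 window held 13 CpG sites and the Plagl1 window 26, against a median of 7 over the windows in the table. A match of letters is a description and not evidence of binding.

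Per kilobase of exon, Peg10 was the most abundant member, with a mean over the 11 groups of 437 CPM per kb, above 99.6% of tested genes. Igf2 (64.4 CPM per kb), H19 (40.7), Cdkn1c (27.4) and Peg3 (21.3) followed. Grb10 stood at 16.3 CPM per kb, Rian at 8.01, Plagl1 at 6.11 and Meg3 at 5.13. The length was the union of all annotated exons, 18234 bases for Rian and 18089 for Meg3, which can exceed that of a single transcript. Dlk1 was lowest at 1.5 CPM per kb, above 41.5% of tested genes. Between the lowest and the highest group mean, Igf2 spanned 13.2-fold and H19 11.8-fold. Rian spanned 9.26-fold and Meg3 8.92-fold, whereas Peg3 spanned 2.38-fold. For H19, Igf2, Peg3, Peg10 and Plagl1 the highest group was stiff serum + LIF + PD03. For Meg3, Rian, Dlk1 and Grb10 the lowest group was soft serum + LIF + PD03.

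**Figure D1:**
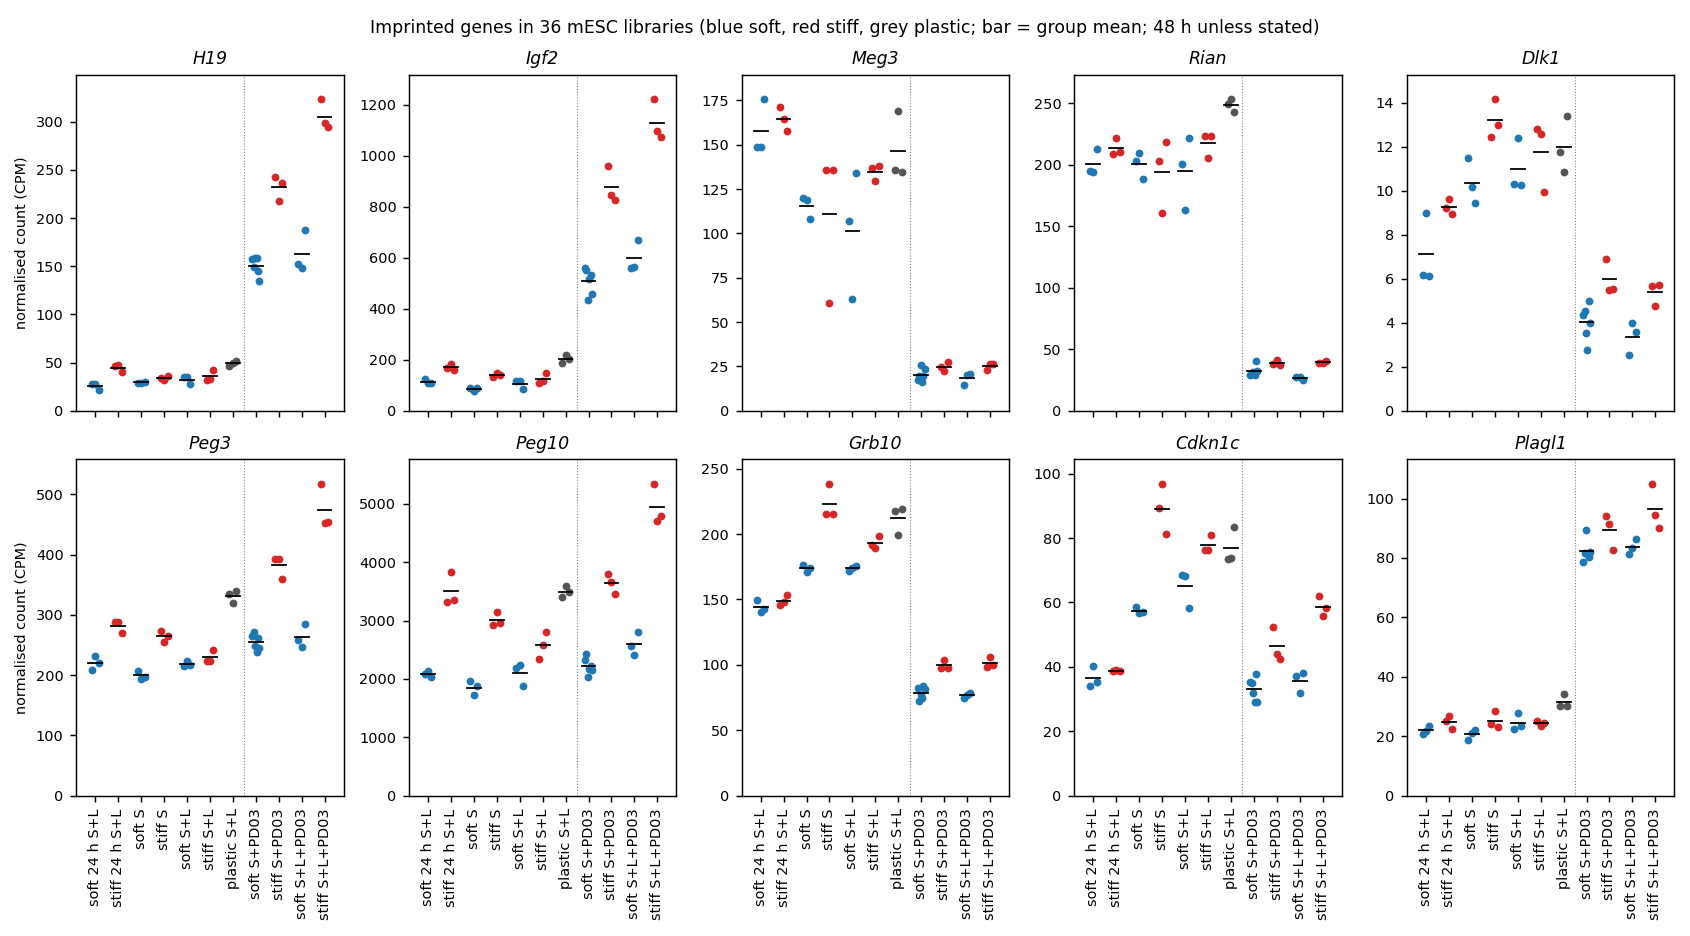
Normalised counts (CPM, vertical axis, from 0) of the 10 imprinted genes in the 36 libraries by group, with blue points for soft gels, red for stiff gels, grey for plastic, and black bars for group means. To the right of the dotted line (PD03 groups), H19, Igf2 and Plagl1 sit above all libraries without PD03, and Meg3, Rian and Grb10 below all of them.

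The first comparison asked how the members changed when MEK was inhibited. With PD03, H19, Igf2, Plagl1, Peg3 and Peg10 were higher and Meg3, Rian, Dlk1, Grb10 and Cdkn1c were lower, in each of the 4 comparisons (soft or stiff, with or without LIF). All 10 members were called in every one of these, 5 higher and 5 lower, and in none did the libraries of any member overlap. Such separation was common in these comparisons, found for 57% of tested genes on soft gels with LIF, 50.6% on soft without LIF, 62.9% on stiff with LIF and 61.1% on stiff without. PD03 moved much of the transcriptome, so these counts stand beside a high background. On soft gels with LIF 27.8% of tested genes were called higher and 26.6% lower. On soft gels without LIF the shares were 29% and 28.5%. On stiff gels they were 28.3% and 27.8% with LIF, and 28.4% and 27.4% without. The median log2 fold change over all tested genes was between -0.01 and 0.01 in the 4 comparisons. By known imprinting, the 5 members that rose include maternal H19 and paternal Igf2. The 5 that fell include maternal Meg3 and paternal Dlk1. Which copy changed was not measured.

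H19 was at 27.7, 34.7 and 35.1 CPM on soft gels in serum + LIF and at 148, 152 and 188 CPM when PD03 was added. On stiff gels it was at 32, 32.8 and 42.3 CPM without and 294, 299 and 323 CPM with PD03. These were 5.01-fold and 8.48-fold increases (log2 fold change 2.32, SE 0.09, adjusted p = 1.6e-27 on soft, log2 fold change 3.08, SE 0.09, adjusted p = 7.0e-33 on stiff). Without LIF the log2 fold changes of H19 were 2.35 on soft and 2.76 on stiff gels. Over the whole series, the 15 libraries with PD03 held 135 to 323 CPM of H19 and the 21 without it 21.5 to 51.9 CPM. In this wider reading 23.1% of tested genes had ranges that did not overlap.

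Igf2 was at 85.7, 115 and 116 CPM on soft gels in serum + LIF and at 558, 565 and 669.7 CPM with PD03. On stiff gels it was at 108, 116 and 148 CPM without and 1073, 1095 and 1220.3 CPM with PD03. The increases were 5.65-fold on soft (log2 fold change 2.5, SE 0.10, adjusted p = 1.0e-27) and 9.08-fold on stiff gels (log2 fold change 3.18, SE 0.10, adjusted p = 6.7e-32). The ratio of Igf2 to H19 (CPM) lay between 2.9 and 4.46 over all group means while both rose. It was 3.24 ± 0.124 (SD, n = 3) on soft gels in serum + LIF and 3.68 ± 0.121 with PD03. On stiff gels it was 3.47 ± 0.0744 and 3.7 ± 0.0702. These ratios were not tested. Over the 11 group means of log2 CPM, H19 and Igf2 had a Pearson correlation of 0.99, and over the 36 libraries with group means removed it was 0.68. The points share libraries and scaling, and the values are descriptions. Igf2os, an antisense transcript that overlaps Igf2, averaged 7.58 CPM, and whether the counting used strand is not given in the sources used here, so reads of the pair cannot be told apart.

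Plagl1 was at 22.5, 23.5 and 27.7 CPM on soft gels in serum + LIF and at 81.4, 83.3 and 86.5 CPM with PD03 (log2 fold change 1.77, SE 0.08, adjusted p = 1.9e-25). On stiff gels its log2 fold changes were 1.98 with LIF and 1.83 without. Peg3 and Peg10 rose less. Peg10 was at 2339, 2575 and 2809 CPM on stiff gels in serum + LIF and at 4702, 4785 and 5336 CPM with PD03, a 1.92-fold increase (log2 fold change 0.94, SE 0.06, adjusted p = 4.7e-18). On soft gels the increase of Peg10 was 1.23-fold with LIF and 1.2-fold without. Peg3 rose 2.07-fold on stiff gels with LIF (log2 fold change 1.05, SE 0.06, adjusted p = 3.3e-22) and 1.21-fold on soft gels with LIF (log2 fold change 0.27, SE 0.06, adjusted p = 3.9e-05). Across the whole series the ranges of Peg3 and Peg10 with and without PD03 overlapped.

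Meg3 and Rian fell most. Rian was at 205, 223 and 224 CPM on stiff gels in serum + LIF and at 38.6, 39 and 40.5 CPM with PD03 (log2 fold change -2.46, SE 0.09, adjusted p = 2.4e-29). On soft gels it was at 163, 200.2 and 222 CPM without and 25.4, 27.4 and 27.8 CPM with PD03, a 7.25-fold lower level (log2 fold change -2.86, SE 0.09, adjusted p = 4.3e-31). Meg3 was at 129.5, 137 and 138 CPM on stiff gels in serum + LIF and at 23.1, 26.4 and 26.6 CPM with PD03 (log2 fold change -2.41, SE 0.18, adjusted p = 1.2e-16). On soft gels Meg3 was at 62.8, 107 and 134 CPM and at 14.6, 20.2 and 20.5 CPM with PD03, a log2 fold change of -2.46. Without the pair of libraries with a low mitochondrial share this was -2.71 for Meg3 and -2.97 for Rian, and on stiff gels without LIF -2.45 and -2.42. The 15 libraries with PD03 held 14.6 to 27.3 CPM of Meg3, all below the 60.7 to 176 CPM of the other 21.

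Dlk1 was at 10.3, 10.3 and 12.4 CPM on soft gels in serum + LIF and at 2.53, 3.6 and 3.99 CPM with PD03 (log2 fold change -1.71, SE 0.17, adjusted p = 1.6e-12). Its log2 fold changes on stiff gels were -1.12 with LIF and -1.15 without. Grb10 was at 189, 191 and 199 CPM on stiff gels in serum + LIF and at 98.3, 100.2 and 106 CPM with PD03 (log2 fold change -0.93, SE 0.05, adjusted p = 1.1e-21). Cdkn1c fell least, from 76.2, 76.3 and 80.9 to 55.7, 58.2 and 61.9 CPM in the same groups (log2 fold change -0.41, SE 0.08, adjusted p = 1.4e-05). In stiff serum it was at 81.4, 89.2 and 96.7 CPM, and at 42.4, 44.1 and 52.5 CPM with PD03 (log2 fold change -0.95, SE 0.08, adjusted p = 1.1e-14). Every member kept its call and direction in the PD03 comparisons with each library left out in turn, with the pool as a term in all 45 possible assignments of libraries to pools, and in DESeq2.

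**Figure D2:**
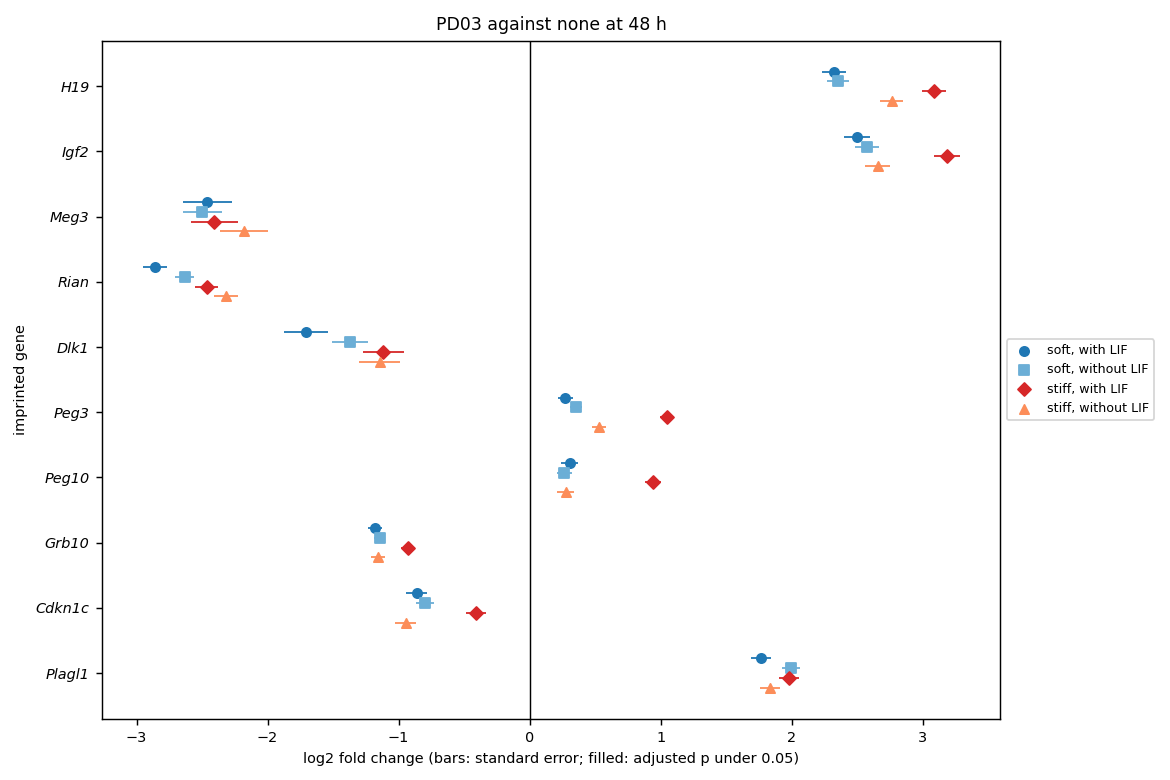
Log2 fold change with PD03 at 48 h (horizontal axis) for the 10 imprinted genes (vertical axis) in 4 comparisons, with bars for the standard error and filled markers for adjusted p under 0.05. All markers are filled; H19, Igf2, Plagl1, Peg3 and Peg10 lie right of 0 and the other 5 genes left of it, with the stiff + LIF markers of H19, Igf2, Peg3 and Peg10 farthest right.

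The Dlk1-Dio3 region was also read through further genes, named by the size of their change. Mirg, a maternal RNA that hosts microRNAs, and Rtl1, a paternal gene derived from a retrotransposon, fell with Meg3 and Rian. Mirg held 17.7 to 35.9 CPM without PD03 and 3.05 to 5.12 CPM with it. Rtl1 held 11.2 to 21.8 and 1.5 to 3.02 CPM. On stiff gels with LIF their log2 fold changes were -2.94 (SE 0.16, adjusted p = 5.9e-22) and -3.10 (SE 0.17, adjusted p = 9.1e-22). Dio3, the deiodinase that inactivates thyroid hormone at the other end of the region, moved the opposite way. It held 1.46 to 4.66 CPM without PD03 and 31 to 39.5 CPM with it. The log2 rise was 4.11 (SE 0.15, adjusted p = 1.0e-28) on stiff gels with LIF and 3.90 (SE 0.15, adjusted p = 8.5e-28) on soft gels with LIF. Thus 5 genes of the region fell and 1 rose with PD03, in each of the 4 comparisons. Over these comparisons 26.6% to 28.5% of tested genes were called lower and 27.8% to 29% higher.

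**Figure D3:**
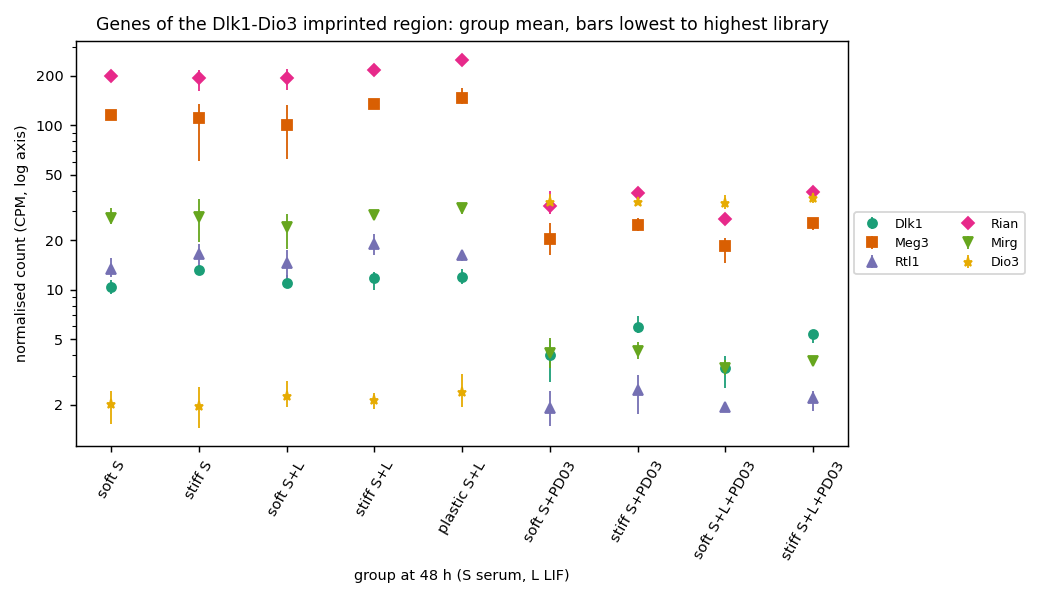
Group means (CPM, log axis) of 6 genes of the Dlk1-Dio3 imprinted region in the 9 groups at 48 h, with bars from the lowest to the highest library. Dlk1, Meg3, Rtl1, Rian and Mirg are lower in the 4 groups with PD03, while Dio3 goes from under 5 CPM to above 30 CPM.

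Of 52 further imprinted genes listed, 45 were tested. On stiff gels with LIF, 19 of these (42.2%) rose and 13 (28.9%) fell with PD03, against 28.3% and 27.8% of all tested genes. On soft gels with LIF 16 (35.6%) rose and 14 (31.1%) fell, against 27.8% and 26.6%. The shares that fell were near the background. The list medians were 0.15 and 0.03 log2 against -0.01 and 0.00 over all tested genes. Beside the genes of the Dlk1-Dio3 region, the 5 largest changes of each comparison, among genes of 5 CPM or more, included Mest, Ascl2 and Ddc. Mest, a paternally expressed hydrolase-like gene, fell by 1.58 on the log2 scale on stiff gels with LIF and by 2.02 on soft gels. Ascl2, a transcription factor of the trophoblast from the same imprinted domain as Cdkn1c, rose by 1.97 (SE 0.17, adjusted p = 2.3e-14) log2 on stiff gels with LIF. Ddc, the aromatic amino acid decarboxylase next to Grb10, rose by 1.37 (SE 0.11, adjusted p = 5.4e-15) log2 on soft gels without LIF, while Grb10 fell there by 1.14 on the log2 scale.

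Partners of IGF2 were read from a list of 12 genes of the IGF axis, all tested. With PD03, 8 rose and 2 fell on stiff gels with LIF, where 28.3% of all tested genes rose and 27.8% fell. On soft gels with LIF 7 rose and 4 fell, where 27.8% rose and 26.6% fell. The list medians were 0.47 and 0.38 log2. Igfbp2, a secreted IGF-binding protein, rose by 1.60 (SE 0.05, adjusted p = 4.5e-30) log2 on stiff gels with LIF and Igfbp3, another, changed by -1.02 (SE 0.08, adjusted p = 3.2e-16). Igf2r, the imprinted receptor that clears IGF2, changed by 0.53 (SE 0.05, adjusted p = 5.3e-12) and Igf1r, the signalling receptor, by 0.67 (SE 0.06, adjusted p = 1.5e-13) in the same comparison. Igfbp5 had the largest change of the list, 2.41 (SE 0.18, adjusted p = 5.5e-17).

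Markers of other cell types were read beside these results. Of 6 trophoblast markers (Cdx2, Elf5, Gata3, Krt7, Hand1 and Tfap2a), 6 rose with PD03 on soft gels with LIF and 5 on stiff gels with LIF. Their summed level was 33.6 to 43 CPM in stiff serum + LIF and 229.9 to 254 CPM with PD03, and 23 to 33.7 and 162 to 170.5 CPM on soft gels. Elf5 stayed under 1 CPM in every library. The primitive endoderm list (Gata6, Gata4, Sox17, Sox7, Foxa2 and Dab2) summed to 50.5 to 50.9 CPM in stiff serum + LIF and 126 to 136 CPM with PD03. There 2 of its members rose, Dab2 (2.31 log2) among them, and 3 fell, Sox7 (-2.54 log2) among them. In the same comparison 1 of 5 tested mesoderm markers rose and 2 fell, 3 of 4 tested neural markers fell, 3 of 5 tested fibroblast markers rose and 1 fell, and 3 of the 6 embryonic stem cell markers rose. These counts stand beside 28.3% of all tested genes that rose and 27.8% that fell on stiff gels with LIF. On soft gels with LIF the shares were 27.8% and 26.6%. The part of these cell types in the changes of the imprinted genes was not tested. In bulk RNA, more cells of a type and more RNA per cell cannot be told apart.

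The second comparison asked how the members differed between soft and stiff gels. All called differences were lower on soft: over the 5 combinations of medium and time, 27 of 50 member values were called lower and 0 higher, and 47 of 50 lay below 0. The 50 values are those of the same 10 genes in each combination. Over the values of all tested genes in the 5 combinations, 2.77% were called lower, 1.7% higher, and 49.4% lay below 0. Peg10 was called lower in all 5, Igf2 and Peg3 in 4, H19, Grb10 and Cdkn1c in 3, Rian and Dlk1 in 2, Plagl1 in 1 and Meg3 in 0. Pool and stiffness can be told apart at 48 h only through 3 libraries whose columns are not identified, while both gels share a pool at 24 h.

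In the 24 h comparison, which lies within a single sequencing pool, 4 members were called lower on soft against a background of 2.52% of tested genes. H19 was at 21.5, 28.1 and 28.1 CPM on soft and 40.1, 46.1 and 47.8 CPM on stiff gels, a 1.73-fold lower level on soft (log2 fold change -0.79, SE 0.10, adjusted p = 1.0e-07). Peg10 was at 2033, 2089 and 2137 CPM on soft and 3320.1, 3348 and 3835 CPM on stiff gels (log2 fold change -0.75, SE 0.06, adjusted p = 2.1e-12). Igf2 was at 109.9, 110.2 and 123 CPM on soft and 162, 168 and 185 CPM on stiff gels (log2 fold change -0.59, SE 0.10, adjusted p = 2.4e-05). Peg3 differed least of the 4, with 209, 220.3 and 232 CPM on soft and 269, 288 and 288 CPM on stiff gels (log2 fold change -0.35, SE 0.06, adjusted p = 1.3e-05). In none of these 4 did soft and stiff libraries overlap, as in 17.1% of tested genes, and all 4 kept their call with each of the 6 libraries left out. The other 6 members had log2 fold changes of -0.38 (Dlk1) to -0.05 (Grb10), with overlapping libraries.

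At 48 h in serum, 6 members were called lower on soft, against 2.77% of tested genes. Igf2 was at 78, 89.2 and 89.3 CPM on soft and 132, 139 and 147 CPM on stiff gels (log2 fold change -0.70, SE 0.10, adjusted p = 7.5e-07). Peg10 was at 1719, 1871 and 1957 and 2923, 2961 and 3152 CPM (log2 fold change -0.70, SE 0.06, adjusted p = 3.3e-11). Cdkn1c, which had not differed by a call at 24 h, was at 56.6, 57 and 58.6 CPM on soft and 81.4, 89.2 and 96.7 CPM on stiff gels (log2 fold change -0.63, SE 0.08, adjusted p = 7.8e-08). Peg3 (-0.41) and Grb10 (-0.36) were called with smaller log2 fold changes, and Plagl1 was called at -0.28 (SE 0.08, adjusted p = 0.039). Plagl1 lost its call without the low-mitochondrial libraries (log2 fold change -0.18, adjusted p = 0.31), and without the first or second soft library (-0.21 and -0.31 log2). H19 was at 29.1, 29.2 and 30.3 and 32.3, 34.1 and 36.1 CPM and was not called (log2 fold change -0.21, SE 0.10, adjusted p = 0.26), although its libraries did not overlap, as in 20.4% of tested genes. With the pool as a term, between 3 and 6 members were called over the 45 assignments.

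In serum + LIF at 48 h the fewest members were called. Peg10 alone was called lower on soft, against 0.333% of tested genes, with 1884, 2188 and 2233 CPM on soft and 2339, 2575 and 2809 CPM on stiff gels (log2 fold change -0.29, SE 0.06, adjusted p = 0.011). It lost the call without the third soft library (-0.20 log2), the second stiff (-0.28) or the third stiff (-0.21). H19 was at 27.7, 34.7 and 35.1 CPM on soft and 32, 32.8 and 42.3 CPM on stiff gels, overlapping (log2 fold change -0.15, SE 0.10, adjusted p = 0.62). Igf2 overlapped as well (log2 fold change -0.23, SE 0.10, adjusted p = 0.32). Meg3, Rian, Grb10 and Cdkn1c lay farther from 0 than at 24 h, without a call. Fits with a pool term called 0 to 2 members. Meg3 had the largest log2 fold change (-0.41, not called), which was -0.16 without the low-mitochondrial libraries (adjusted p = 0.69).

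With PD03 the most members were called. In serum + PD03, 8 members were called lower on soft against 3.42% of tested genes, and in serum + LIF + PD03 8 against 4.82%. In fits with a pool term these were 5 to 8 and 6 to 8 over the 45 assignments. In serum + LIF + PD03 H19 was at 148, 152 and 188 CPM on soft and 294, 299 and 323 CPM on stiff gels (log2 fold change -0.91, SE 0.08, adjusted p = 1.1e-12). In serum + PD03 the 6 soft libraries had a lowest value of 135, a median of 153 and a highest value of 159 CPM, and the 3 stiff libraries 218, 236 and 242 CPM (log2 fold change -0.62, SE 0.07, adjusted p = 1.2e-09). Igf2 on soft gels in serum + PD03 had a lowest value of 436, a median of 524 and a highest value of 560.3 CPM, against 826, 847 and 960.3 CPM on stiff gels (log2 fold change -0.79, SE 0.08, adjusted p = 4.8e-11). In serum + LIF + PD03 its log2 fold change was -0.92, that of Peg10 -0.93 and that of Peg3 -0.85. For H19, Igf2, Peg3 and Peg10 the soft and stiff libraries did not overlap in either medium, as in 11.6% of tested genes without LIF and 24.8% with it. These 4 and Grb10 were called in both media in all 45 assignments.

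Of the genes that PD03 lowered, Cdkn1c, Grb10, Dlk1 and Rian were also lower on soft gels in both PD03 media. In serum + LIF + PD03 Cdkn1c was at 31.9, 37.3 and 38 CPM on soft and 55.7, 58.2 and 61.9 CPM on stiff gels (log2 fold change -0.71, SE 0.08, adjusted p = 4.7e-09). Grb10 was at 74.8, 77.2 and 78.2 and 98.3, 100.2 and 106 CPM (log2 fold change -0.41, SE 0.05, adjusted p = 8.0e-08). Rian was at 25.4, 27.4 and 27.8 and 38.6, 39 and 40.5 CPM (log2 fold change -0.55, SE 0.10, adjusted p = 4.5e-05). Dlk1 was at 2.53, 3.6 and 3.99 and 4.77, 5.66 and 5.71 CPM (log2 fold change -0.68, SE 0.18, adjusted p = 0.0082). In serum + PD03 the call of Rian (log2 fold change -0.27, SE 0.08, adjusted p = 0.041) was lost in 8 of the 9 fits that left out a library, all but that without the fifth soft library, with log2 fold changes of -0.34 to -0.22. Dlk1 lost its call in serum + PD03 without the first stiff library (-0.57, then -0.46 log2), and in serum + LIF + PD03 without the first soft library (-0.50). In those pool fits Rian was called in 3 of 45 assignments without LIF and 30 with LIF, Dlk1 in 13 and 12, and Cdkn1c in 42 and 45. Meg3 was not called in either PD03 medium (-0.27 and -0.47 log2), but without the low-mitochondrial libraries, which are in neither of these media, it was called in serum + LIF + PD03 (adjusted p = 0.0065). Plagl1 was not called in serum + LIF + PD03 (adjusted p = 0.055) and was called there in that same fit (adjusted p = 0.025).

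**Figure D4:**
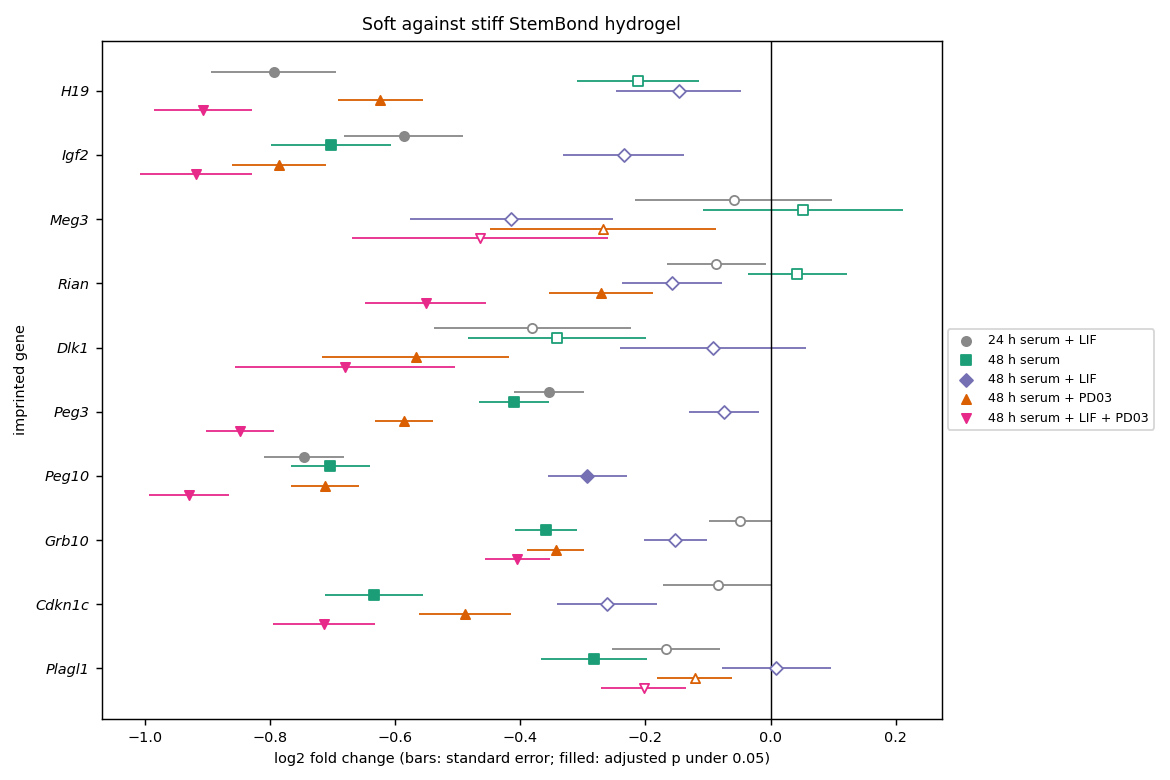
Log2 fold change of soft against stiff gels (horizontal axis) for the 10 imprinted genes (vertical axis) in 5 combinations of medium and time, with bars for the standard error and filled markers for adjusted p under 0.05. All filled markers lie left of 0, and the serum + LIF 48 h markers (diamonds) lie closest to 0 for Igf2, Peg3 and Peg10.

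Averaged over the 5 combinations, all 10 members were called lower on soft, against 8.74% of tested genes. The mean log2 fold changes were -0.68 (SE 0.03, adjusted p = 5.8e-25) for Peg10, -0.65 (SE 0.04, adjusted p = 5.1e-18) for Igf2 and -0.54 (SE 0.04, adjusted p = 2.2e-15) for H19. Those of Peg3 (-0.45), Cdkn1c (-0.44) and Dlk1 (-0.41) were intermediate, and those of Grb10 (-0.26), Meg3 (-0.23), Rian (-0.20) and Plagl1 (-0.15) smallest. With the pool as a term, 5 to 8 members were called. H19 ranged from -0.67 to -0.42, Peg10 from -0.78 to -0.56 and Igf2 from -0.86 to -0.47 log2, and these 3 were called in all 45 assignments. Meg3 and Plagl1 were called in none of the 45. Meg3 also lost the call without any of 5 libraries, the second of soft serum + LIF (-0.18 log2), the first of soft serum + LIF + PD03 (-0.20), the first and the third of stiff serum (-0.19 and -0.20) and the third of stiff serum + PD03 (-0.21).

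Of the 45 further imprinted genes tested, 17 were called lower and 2 higher on soft in the average over combinations, against 8.74% and 8.35% of all tested genes, with a list median of -0.09 log2 against 0.00 over all genes. Nnat, a paternally expressed proteolipid, was the only gene among them with at least 5 CPM and a log2 fold change of 1 or more in any single combination, -1.03 (SE 0.14, adjusted p = 1.8e-07) in serum + LIF + PD03. Of the 12 genes of the IGF axis, 7 were called lower and 2 higher, among them Igfbp5 (-0.76) and Irs1, a docking protein for insulin and IGF receptors (-0.59). Beside these, 5 of 6 trophoblast markers were lower on soft in the average, and their sum at 24 h was 43.8 to 49.3 CPM on soft and 69.5 to 74.5 CPM on stiff gels. Of 6 fibroblast markers 5 were tested and 3 lower on soft, with sums at 24 h of 23.5 to 35.2 and 50 to 57.3 CPM, most of it Col1a1, while Lum was at or near 0 throughout. Of the 6 embryonic stem cell markers 5 were higher on soft in the average. The part of these cell types in the lower levels on soft gels was not tested.

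The third comparison asked whether the difference between soft and stiff gels depended on PD03. With LIF, 5 members were called with a negative interaction, against 0.949% of tested genes: the PD03 groups showed a larger deficit on soft gels, or a smaller rise. The log2 interaction was -0.77 (SE 0.08, adjusted p = 1.2e-09) for Peg3, -0.76 (SE 0.13, adjusted p = 1.4e-04) for H19, -0.68 (SE 0.13, adjusted p = 0.0012) for Igf2 and -0.64 (SE 0.09, adjusted p = 6.4e-06) for Peg10. For H19 it sets the 8.48-fold rise on stiff gels against the 5.01-fold rise on soft. For Cdkn1c the interaction was -0.45 (SE 0.11, adjusted p = 0.03), with the call lost in 6 of the 12 fits that left out a library, those without the first or second of soft serum + LIF (-0.43 and -0.42), the second of soft serum + LIF + PD03 (-0.40), the first or second of stiff serum + LIF (-0.45 and -0.46) and the first of stiff serum + LIF + PD03 (-0.43). Without LIF 0 of 10 were called by edgeR or by DESeq2, at a background of 0.797% of tested genes in either direction. Of the 10, 3 had an unadjusted p under 0.05, for which no share of all tested genes was computed. H19 there was at -0.41 (SE 0.12, adjusted p = 0.089) and Igf2 at -0.08 (SE 0.12, adjusted p = 0.86). Whether the interactions with and without LIF differ from each other was not tested.

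With LIF against without it, few members were called. On soft gels 0 of 10 were called by edgeR or by DESeq2, either without PD03, where 0.0169% of tested genes were called, or with PD03, where 0.107% were. At an unadjusted p under 0.05 there were 5 members without and 3 with PD03. The share of all tested genes at that unadjusted threshold was not computed, so these counts have no background. The log2 fold changes ranged from -0.19 (Meg3) to 0.31 (Igf2) without PD03, and from -0.27 (Rian) to 0.23 (Igf2) with PD03. On stiff gels without PD03, Grb10 (log2 fold change -0.20, SE 0.05, adjusted p = 0.017) and Peg3 (log2 fold change -0.21, SE 0.06, adjusted p = 0.042) were called lower with LIF, against 0.695% of tested genes. Grb10 lost the call without the first or second library of stiff serum + LIF (-0.21 and -0.21 log2) or the second of stiff serum (-0.16). Peg3 lost it without the first or second of stiff serum + LIF (-0.20 and -0.20) or the first or the third of stiff serum (-0.20 and -0.22).

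On stiff gels with PD03, 5 members were higher with LIF, against 0.294% of tested genes. Peg10 was at 3462, 3657 and 3804 CPM without and 4702, 4785 and 5336 CPM with LIF (log2 fold change 0.44, SE 0.06, adjusted p = 3.9e-05). H19 was at 218, 236 and 242 CPM without and 294, 299 and 323 CPM with LIF (log2 fold change 0.40, SE 0.08, adjusted p = 0.0042). Igf2 was at 826, 847 and 960.3 and 1073, 1095 and 1220.3 CPM (log2 fold change 0.36, SE 0.09, adjusted p = 0.037). The libraries of these 3 genes did not overlap between the media, as in 17.2% of tested genes. Peg3 (log2 fold change 0.31, SE 0.05, adjusted p = 0.0012) and Cdkn1c (log2 fold change 0.34, SE 0.08, adjusted p = 0.029) were also called. The number called went from 5 to 1 without the first library of stiff serum + LIF + PD03, to 2 without the second of stiff serum + PD03, and to 3 without either other library of the former or the third of the latter. Igf2 (0.31 to 0.44 log2) and Cdkn1c (0.29 to 0.44) were lost in all 5 of these fits. H19 was lost without the first of stiff serum + LIF + PD03 (0.35) and the second of stiff serum + PD03 (0.35), and Peg3 without the first of stiff serum + LIF + PD03 (0.25). Peg10 kept its call in each.

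Plastic gave the comparison with the usual culture surface, in serum + LIF at 48 h. H19 was at 46.7, 49.4 and 51.9 CPM on plastic, above 32, 32.8 and 42.3 CPM on stiff gels (log2 fold change -0.45, SE 0.10, adjusted p = 1.0e-03) and 27.7, 34.7 and 35.1 CPM on soft gels (log2 fold change -0.60, SE 0.10, adjusted p = 6.8e-06). Igf2 was at 188, 202 and 217 CPM on plastic, with log2 fold changes of -0.70 (SE 0.09, adjusted p = 3.3e-07) on stiff and -0.94 (SE 0.10, adjusted p = 9.7e-11) on soft gels. Peg10 was at 3412, 3484 and 3589.8 and Peg3 at 319, 335 and 340.1 CPM on plastic, with log2 fold changes on soft gels of -0.73 and -0.60, and on stiff gels of -0.44 and -0.53. Plagl1 was at 30.1, 30.1 and 34.3 CPM on plastic and was lower on both gels (-0.36 on soft and -0.37 on stiff). Thus 9 of 10 members were called lower on soft gels than on plastic, against 6.47% of tested genes, and 5 of 10 lower on stiff gels, against 3.59%. Both comparisons share the plastic libraries. All plastic libraries were in another pool than the soft ones, and with the pool as a term 0 to 5 members were called for soft and 1 to 4 for stiff gels. Without the low-mitochondrial libraries Meg3 was no longer called on soft gels (log2 fold change -0.53, SE 0.16, adjusted p = 0.022, and then -0.28 with adjusted p = 0.083), nor without the second plastic library (-0.41). Cdkn1c on soft gels (-0.24) kept its call only without the second soft library, at -0.27 to -0.15 over the 6 fits. Plagl1 lost its call without the second plastic library on soft (-0.28) and on stiff gels (-0.31), and without the first soft library (-0.28). The mitochondrial share was 2.27% to 2.92% on plastic, and its part in these differences was not tested.

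Between 24 h and 48 h in serum + LIF, Cdkn1c and Grb10 rose on both gels. Cdkn1c was at 34, 35.3 and 40.3 CPM at 24 h and 58.4, 68.1 and 68.4 CPM at 48 h on soft gels (log2 fold change 0.83, SE 0.09, adjusted p = 2.1e-10). On stiff gels it went from 38.6, 38.9 and 38.9 to 76.2, 76.3 and 80.9 CPM (log2 fold change 1.01, SE 0.08, adjusted p = 6.6e-14). Grb10 rose by 0.27 (SE 0.05, adjusted p = 5.3e-05) log2 on soft and 0.37 (SE 0.05, adjusted p = 6.8e-08) on stiff gels. On soft gels 4 members were called higher and 1 lower, against 12.9% and 11.4% of tested genes. Dlk1 was at 6.13, 6.19 and 8.99 CPM at 24 h and 10.3, 10.3 and 12.4 CPM at 48 h (log2 fold change 0.63, SE 0.16, adjusted p = 0.0023), and Meg3 changed by -0.64 (SE 0.16, adjusted p = 0.0023), or -0.39 without the low-mitochondrial libraries (adjusted p = 0.0042). On stiff gels 2 were called higher and 4 lower, against 12.6% and 13%. Igf2 (-0.46), Peg10 (-0.44), H19 (-0.31) and Peg3 (-0.30) were the ones that fell. In these comparisons the pool largely coincides with time. With the pool as a term 0 to 3 members were called on soft gels, Cdkn1c in 43 of 45 assignments, H19 in 13, Grb10 in 7, Dlk1 in 4 and Meg3 in 0. Dlk1 there ranged from -0.22 to 1.20 log2, so its direction turned in some assignments. On stiff gels Peg10, Grb10 and Cdkn1c were called in all 45, Peg3 in 35, and H19 and Igf2 in 30 each.

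H19 was called in opposite directions over time on the soft gels, where it was higher at 48 h (log2 fold change 0.34, SE 0.11, adjusted p = 0.014), and on the stiff gels, where it was lower (log2 fold change -0.31, SE 0.09, adjusted p = 0.011). The interaction of stiffness and time was called for H19 (log2 0.65 (SE 0.14, adjusted p = 0.022)) and Peg10 (log2 0.45 (SE 0.09, adjusted p = 0.0097)), against 0.226% of tested genes called in that direction. Both lost the call without the low-mitochondrial libraries (adjusted p = 0.11 and 0.051), and so did the rise of H19 on soft gels (0.29 log2, adjusted p = 0.079). The rise on soft gels was also lost without the third 24 h or the first 48 h library (0.22 and 0.29), and the fall on stiff gels without the second 24 h or the first or second 48 h library (-0.26, -0.24 and -0.25). Of 12 fits that left out a library the interaction kept its call in 5 for H19 (0.53 to 0.81) and in 9 for Peg10 (0.40 to 0.54), lost for Peg10 without the second of soft 48 h, the second of stiff 24 h or the first of stiff 48 h. The interaction was called, once the pool was a term, in 12 of 45 assignments for H19 and 10 for Peg10. The 24 h libraries were in another pool than all soft and most stiff 48 h libraries. With the pool as a term, the change of H19 on soft gels lay between -0.062 and 0.84 log2, and that of Cdkn1c between 0.52 and 1.15.

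Correlations between members differed between group means and libraries. Meg3 and Rian had a Pearson correlation of 0.99 over the 11 group means of log2 CPM and 0.65 over the 36 libraries with group means removed. The low-mitochondrial libraries are among the 36 and were the lowest of their groups in both genes. They held 60.7 and 62.8 CPM of Meg3 and 161 and 163 CPM of Rian. The correlation was not computed without them. Dlk1, in the same region, had 0.86 with Meg3 and 0.92 with Rian over the group means, but -0.09 and -0.0077 with group means removed. Cdkn1c, on the same chromosome as H19 and Igf2, had -0.36 with H19 and -0.37 with Igf2 over the group means, and 0.36 and 0.53 with them removed. Of members on different chromosomes, values over the group means were 0.98 for Dlk1 and Grb10 and 0.94 for Peg3 and Peg10. With group means removed these were 0.17 and 0.64. H19 and Plagl1 had 0.99 over the group means and 0.10 with them removed. Igf2 and Peg10, by contrast, had 0.63 over the group means and 0.88 with them removed. The ratio of Rian to Meg3 was 1.28 ± 0.0531 (SD, n = 3) on soft gels in serum + LIF at 24 h and 2.04 ± 0.494 at 48 h, where 1 of the 3 is a low-mitochondrial library. On stiff gels in serum + LIF it was 1.3 ± 0.0699 at 24 h and 1.61 ± 0.0235 at 48 h. These ratios were not tested.

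**Figure D5:**
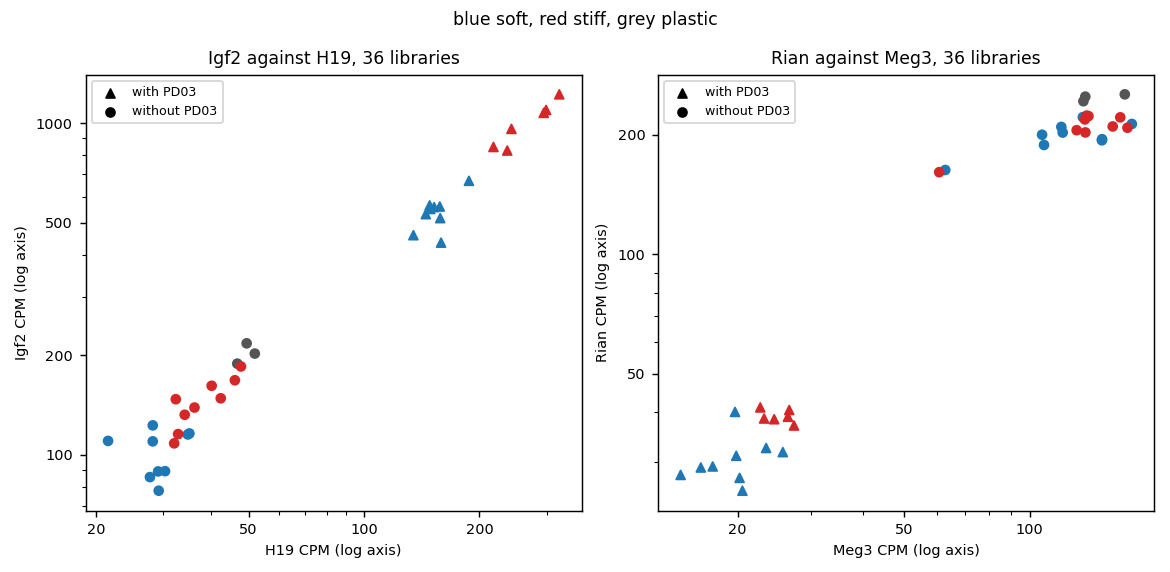
Igf2 against H19 and Rian against Meg3 in the 36 libraries (CPM on log axes), with blue for soft, red for stiff and grey for plastic, triangles with PD03 and circles without. Both pairs lie along a rising line, with PD03 libraries at the upper end for H19 and Igf2 and at the lower end for Meg3 and Rian, and the 2 low-mitochondrial libraries near 60 CPM of Meg3.

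Among 10465 genes with a mean of at least 5 CPM, the 5 with the group means most like those of H19 were 3830417A13Rik, Igf2os, Birc3, Diaph3 and St3gal5, with Pearson correlations of at least 0.99 over 11 groups. For Igf2 they were Chst12, Sptbn1, Rflnb, Nrk and Igf2os, and for Meg3 F2rl1, Sned1, Etnk1, Ahdc1 and Mirg, all at 0.99 or above. Among the genes most like Peg10, the correlation was 0.95 for Lrp2 and Dag1 and 0.94 for Col1a1 and Sgce. Sgce is the imprinted gene that lies head to head with Peg10. Igf2os and Mirg are likewise neighbours of the genes they resembled. With so many genes and 11 group means dominated by PD03, such values are descriptions.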

How the data were processed

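RNA was extracted with DNA digestion and made into libraries with a NuGen kit. The authors aligned the reads with STAR 2.5.2a to mm10 and counted them per Ensembl gene with HTSeq, and deposited one table of raw counts, the unit used here. Strand setting and the handling of reads with several matches are not given in the sources used here. Columns carry group names without replicate numbers. Of 49671 identifiers, 49412 matched a GENCODE symbol on the same build. Libraries held 10405696 to 26635239 counts. Libraries of a group differed by more than sampling noise (lowest chi-square per gene 2.22 over 45 pairs), so none was treated as deposited more than once.

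Genes were filtered with filterByExpr, scaled by TMM and tested with edgeR 4.0.16 (quasi-likelihood, 1 coefficient per group, all 36 libraries, no covariate, Benjamini-Hochberg over 17702 genes) in R 4.3.3. The study's own test was DESeq. In simulated counts for soft against stiff at 24 h over 17702 genes, 89% of 100 changes of 0.5 log2 and 100% of 100 changes of 1 log2 were recovered. Of the 201 genes called there, 5.97% were false. No other comparison was simulated. Alternatives were DESeq2 1.42.0, RLE size factors, total counts, no filter, only the groups compared, the pool as a term over 45 assignments, each library left out, and, chosen after seeing the data, both low-mitochondrial libraries left out.

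The members and lists were chosen with earlier results of these data known. The members were all named. Other imprinted genes were named when called, with at least 5 CPM and 1 log2, at most 5 per comparison, and the genes most like H19, Igf2, Meg3 and Peg10 by Pearson correlation over group means. A gene that this rule names is not reported here. Other named genes were picked from their lists after their values were seen. The lists were other imprinted genes, imprint keepers, the IGF axis and markers of embryonic stem cells, primitive endoderm, trophoblast, fibroblasts, mesoderm and neural cells.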

Additional observations from a re-analysis of the deposited data

Results flagged for a closer look

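In soft serum + PD03, the group with 6 libraries, 1 library stood farther from the others than Dixon's limit for Rian, at 40.1 CPM, and 1 for Plagl1, at 89.6 CPM. The check was made for 10 members in that group, and chance flags about 1 in 20. The library high in Plagl1 is the one that lay farthest from its group mean over the more highly expressed genes.

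For 5 members the difference between soft and stiff gels in serum + LIF was not the same with and without PD03, by the test of the interaction. The log2 interaction was -0.76 for H19, -0.68 for Igf2, -0.77 for Peg3, -0.64 for Peg10 and -0.45 for Cdkn1c. This direction was called for 0.949% of tested genes. The call of Cdkn1c was lost in several of the 12 fits that left out a library. For H19 and Peg10 the difference between gels in serum + LIF also changed from 24 h to 48 h, by 0.65 and 0.45 log2. Both of these calls were lost without the low-mitochondrial libraries, held in 5 and 9 of 12 fits that left out a library, and with the pool as a term held in 12 and 10 of 45 assignments. In the absence of LIF, the interaction with PD03 was -0.18 for Peg3, -0.01 for Peg10 and 0.15 for Cdkn1c, and none was called.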

How the results depend on the processing

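No paired analysis was possible because the columns carry no replicate numbers. Of 116 calls of a member in a comparison, direction and call held in 116 with RLE size factors and with no filter, 111 with DESeq2, 112 with total counts, 112 with only the groups compared, 109 without both low-mitochondrial libraries, and 988 of 1062 with a library left out; the rest lost the call with the same direction. With the pool as a term they held in 102 at the lowest and 85 at the highest value over 45 assignments, with 12 and 29 calls lost and 2 turned in each. The cause of the changes was not tested. With the pool as a term, 4 values turned at an extreme of the 45 assignments, without being called there: Meg3 in the mean of soft against stiff (0.083 log2), Cdkn1c in soft against plastic (0.084), and H19 (-0.062) and Dlk1 (-0.22) in time on soft gels. Members called at the lowest were 3 in soft against stiff in serum, 0 in serum + LIF (2 at the highest), 5 in serum + PD03, 5 in the mean, 0 for LIF on stiff gels without PD03, 0 in soft against plastic (5 at the highest), 1 in stiff against plastic, 0 in time on soft gels (3 at the highest), 3 in time on stiff gels and 0 in the interaction with time. At the highest, 1 was called for LIF on soft gels with PD03 and 1 in the interaction with PD03 without LIF.

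With no filter, 3 members were called in soft against stiff in serum + LIF, 2 and 3 for LIF on soft gels without and with PD03, 4 for LIF on stiff gels without PD03, 2 in the interaction with PD03 without LIF and 5 in that with time. With only the groups compared these were 1 for LIF on soft gels with PD03, 0 for LIF on stiff gels without PD03, 1 in the interaction with PD03 without LIF and 1 in that with time. Total counts gave 1 for LIF on soft gels with PD03, 1 for LIF on stiff gels without PD03 and 1 in the interaction with PD03 without LIF. Without both low-mitochondrial libraries it was 1 for LIF on soft gels with PD03, 1 for LIF on stiff gels without PD03 and 0 in the interaction with time. Leaving out 1 library gave 0 to 1 in soft against stiff in serum + LIF, 0 to 1 for LIF on soft gels without PD03 and 0 to 1 with it, 0 to 3 and 1 to 5 for LIF on stiff gels without and with PD03, 3 to 5 in time on soft gels and 0 to 3 in the interaction with time. The share of all tested genes called was computed only for the main fit, so the counts of members under all other settings have no background. Dlk1 had the fewest counts, 47 in its lowest library.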

Other observations

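Genes that keep imprints were read from a list of 8, all tested. Dppa3, which protects the maternal genome from loss of methylation after fertilisation, rose with PD03 by 2.10 (SE 0.09, adjusted p = 1.2e-25) log2 on stiff and 2.02 (SE 0.09, adjusted p = 1.5e-25) on soft gels with LIF. Setdb1, a histone methyltransferase recruited to silenced regions by zinc finger proteins, changed by 0.54 (SE 0.04, adjusted p = 3.2e-15) and 0.56 (SE 0.04, adjusted p = 1.1e-15). Zfp445, a zinc finger protein that binds imprinting control regions, changed by -0.52 (SE 0.06, adjusted p = 6.7e-10) and -0.40 (SE 0.06, adjusted p = 4.3e-07). Over the list 2 rose and 4 fell on stiff gels with LIF, and 3 rose and 3 fell on soft gels with LIF, where 26.6% to 28.3% of all tested genes were called in each direction. Between gels 4 of 8 were called higher and 0 lower on soft in the mean over the 5 combinations, where 8.35% of all tested genes were higher, among them Zfp57, the reader of methylated control regions, at 0.19 (SE 0.02, adjusted p = 8.3e-09).

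The libraries with a low mitochondrial share were low in several nuclear RNAs beside Meg3. Malat1, the abundant noncoding RNA of nuclear speckles, was at 1047 and 1154 CPM in them and at 1328 to 2018 CPM in the other 34. Over the 36 libraries, with group means removed, Meg3 had a correlation of 0.93 with Malat1, 0.92 with Kcnq1ot1, an imprinted noncoding RNA of the Cdkn1c domain, and 0.88 with Neat1, against 0.65 with its neighbour Rian. The libraries share scaling, and these values are descriptions. They include the low-mitochondrial libraries and were not computed without them.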
